A study of Mus musculus with 8 samples.

Results

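The genes described here are 39 components of phosphoinositide 3-kinase (PI3K), AKT, mTOR and FOXO signalling, measured by RNA sequencing in hand-picked mouse pancreatic islets. They were chosen by symbol from a list of pathway genes, and all 39 of 39 were found once among the 55487 Ensembl gene identifiers of the deposited tables. Insulin and growth factor receptors activate PI3K, which makes a membrane lipid that brings the kinase AKT to the membrane, where PDK1 phosphorylates it. AKT then inhibits the TSC complex and GSK3, excludes FOXO transcription factors from the nucleus and, through RHEB, activates mTOR complex 1, which promotes translation by phosphorylating S6 kinases and the 4E-BP repressors. In beta cells this pathway is known for its control of growth, survival and insulin production, and FOXO1 is known to act there under metabolic stress.

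The comparison was between 3 Ide-/- islet samples, which lack insulin-degrading enzyme, and 5 Ide+/+ islet samples. Both groups were C57BL/6J mice that were given a diet with 60 kcal% fat for 2 weeks from 10 weeks of age, and the labels call all of them female. The labels name the Ide genotype without the allele's origin. They call the samples biological replicates without stating the number of animals behind each, so p-values measure the spread between these samples.

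Library totals were 7143424 to 17445976 counts in Ide-/- and 19277303 to 33371662 counts in Ide+/+. Ide had 4 to 7 counts in Ide-/- libraries and 256 to 765 counts in Ide+/+ libraries. The female transcript Xist reached 692 counts in Ide+/+ replicate 1 and no more than 11 elsewhere, and the Y-linked Ddx3y had 0 counts in Ide+/+ replicate 1 and 503 to 2139 in the rest, so 7 of the 8 libraries went against the label of female. Ide+/+ replicates 2 and 3 were closer to each other than any other pair: the median gene differed by a chi-square value of 0.837, against 0.455 from counting noise alone and 2.15 to 49.6 in the other 12 pairs of the same genotype. Whether they came from the same animal or RNA cannot be told from the labels or from this value. They were kept as 2 of the 5 Ide+/+ samples, as labelled, and counts with them summed to 1 are given beside the results. The 24 acinar markers matched, genes of the exocrine cells around the islets, were lower in Ide-/- (24 of 24 called) and took 0.634%, 1.33% and 1.36% of counts in Ide-/- libraries, against 38.0%, 21.8%, 22.1%, 34.2% and 34.6% in Ide+/+ libraries. Duct markers were lower for 10 of 12 genes, with a summed level of 309 to 336 CPM (scaled counts-per-million) in Ide-/- and 1063 to 2788 CPM in Ide+/+. Macrophage markers were lower for 11 of 15 tested genes (41.7 to 59.0 CPM in Ide-/- and 123 to 243 CPM in Ide+/+) and lymphocyte markers for 4 of 5 (3.09 to 4.13 CPM in Ide-/- and 7.54 to 22.5 CPM in Ide+/+, with Cd3e and Cd4 at 0 in every Ide-/- library and Cd8a at 0 in all 8 libraries). Of the endocrine markers, 5 of 22 pan-endocrine genes were higher and 0 lower. Of 12 beta cell genes, such as Ins2, 0 were called (summed 83820 to 106400 CPM in Ide-/- and 35440 to 138900 CPM in Ide+/+). Unscaled, beta cell markers made up 13.5% to 21.9% of the counts of Ide-/- libraries. Their share of Ide+/+ libraries was only 1.71% to 7.80%. Pan-endocrine shares were 0.75% to 1.29% for Ide-/- and 0.20% to 0.70% for Ide+/+, also without overlap. Macrophage shares (0.00858% to 0.00902% for Ide-/-, 0.00497% to 0.0208% for Ide+/+) overlapped, as did lymphocyte and alpha cell shares. Alpha cell genes were lower for 1 of 8, and delta cell genes higher for 1 of 4, with a summed level of 2784 to 6985 CPM in Ide-/- and 1229 to 2458 CPM in Ide+/+, without overlap. Endothelial markers were lower for 1 of 12 genes and fibroblast and stellate markers for 1 of 11, with overlapping summed CPM. Their unscaled shares were higher in Ide-/- without overlap. Endothelial shares were 0.0456% to 0.0539% in Ide-/- and 0.00415% to 0.0441% in Ide+/+. Fibroblast and stellate shares were 0.0493% to 0.0540% in Ide-/- and 0.00556% to 0.0404% in Ide+/+. In these bulk samples fewer cells of a type and less RNA per cell cannot be told apart, and the part of these cell types in the results below was not tested.

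The largest fold change among the 39 genes was that of Eif4ebp1, of the 4E-BP family, small proteins that hold the cap-binding factor eIF4E away from the ribosome until mTOR complex 1 phosphorylates them. The stretch of coding sequence around the eIF4E-binding motif is shown for Eif4ebp1, which fell, and for Eif4ebp2, which was not called, so that the transcripts of these paralogs can be compared where their proteins act. Capitals mark the 21 bases of the codons of the motif, in exon 2 of both genes, and the 81 bases run from exon 1 into exon 2 of the spliced transcript (GENCODE M21 on GRCm38). The Eif4ebp1 stretch lies within chr8:27260535-27273387 on the plus strand, with the motif at chr8:27273337-27273357. The Eif4ebp2 stretch lies within chr10:61435039-61452417 on the minus strand, with the motif at chr10:61435069-61435089.
Eif4ebp1: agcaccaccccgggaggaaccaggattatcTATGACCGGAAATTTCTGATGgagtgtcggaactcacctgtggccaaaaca
Eif4ebp2: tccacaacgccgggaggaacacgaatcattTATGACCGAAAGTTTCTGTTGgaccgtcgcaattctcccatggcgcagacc
The genes shared 58 of the 81 bases and 18 of the 21 motif bases. Of the distinct 50-base stretches of their transcripts, 2.87% for Eif4ebp1 and 0 for Eif4ebp2 occurred in any other annotated gene.

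Of the 39 genes, all of which passed the low-count filter, 1 rose and 7 fell in Ide-/- islets (edgeR quasi-likelihood test on counts with TMM library scaling, Benjamini-Hochberg adjusted p under 0.05). The catalytic subunit Pik3ca rose, and Pik3r1, Akt1, Gsk3b, Deptor, Rps6ka1, Eif4ebp1 and Grb10 fell, although Pik3r1, Akt1, Gsk3b and Grb10 had uncalled positive fold changes on the TPM scale. The 8 calls were 20.5% of the genes, a share near the 21.1% called among all 16266 tested genes (10.4% higher and 10.6% lower). Leaving out 1 library gave 1 higher and 3 lower without Ide-/- replicate 1, 1 and 1 without Ide-/- replicate 2, 0 and 2 without Ide-/- replicate 3 and 0 and 5 without Ide+/+ replicate 4. In these fits 10.3%, 5.13%, 5.13% and 12.8% of the 39 genes were called, where 10.8%, 9.36%, 9.07% and 13.1% of all genes were. DESeq2 called 1 higher and 9 lower, adding Akt2 and Eif4ebp2. These were 25.64% of the 39 genes, where 21.99% of all genes were called. With no low-count filter edgeR called 1 and 6, with Akt2 in and Pik3r1 and Akt1 out. These were 17.95% of the 39 genes, where 11.16% of all genes were called. The median log2 fold change, Ide-/- over Ide+/+, was −0.13 for the pathway genes and −0.01 for all genes tested. When libraries were scaled instead to 22 pan-endocrine genes, such as chromogranins, which expresses each gene relative to endocrine RNA, 0 rose and 3 fell (Deptor, Rps6ka1 and Eif4ebp1), against a background of 12.3% called (4.64% higher and 7.61% lower). Without any 1 Ide-/- library or Ide+/+ replicate 4 endocrine scaling left Eif4ebp1 alone called, where 4.59% to 6.69% of all genes were called. By contrast, 7 genes were lower without Ide+/+ replicate 1, where 16.2% of all genes were called. Without Ide+/+ replicate 5, 6 were lower and Pik3ca was higher, where 16.4% of all genes were called. With this endocrine scaling the median was −0.21 for the pathway genes and −0.06 for all genes. With Ide+/+ replicates 2 and 3 summed to 1 library the counts were again 1 and 7 with TMM and 0 and 3 with endocrine scaling. All 8 and all 3 of the genes called were the same. Of all genes, 18.9% with TMM and 10.9% with endocrine scaling were called in these summed fits.

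**Figure D1:**
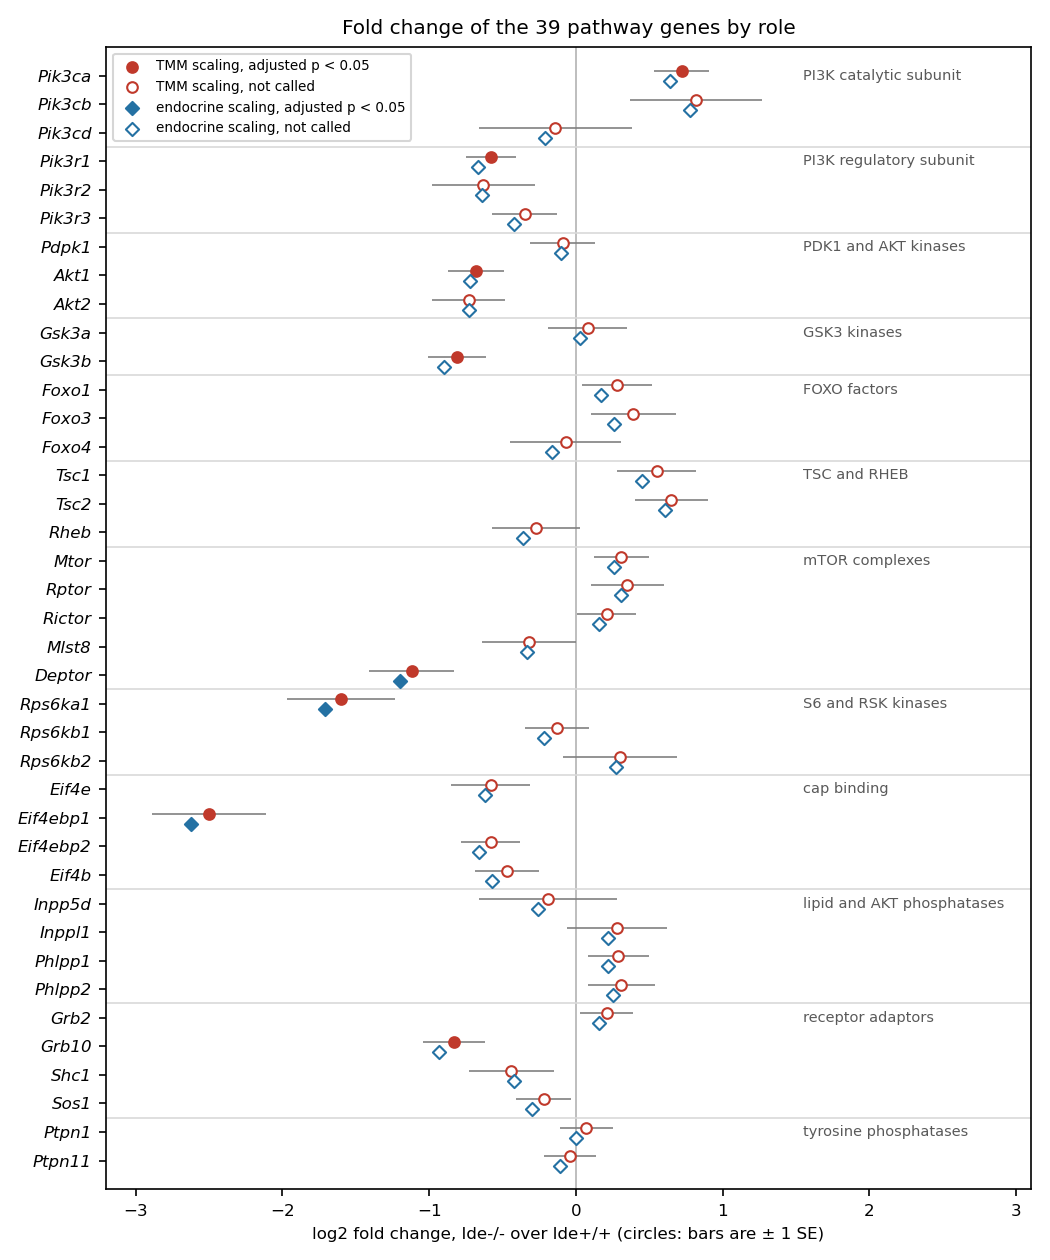
Log2 fold change, Ide-/- over Ide+/+, of the 39 genes in order of role; circles are TMM scaling with bars of ± 1 SE, diamonds are endocrine scaling, and filled symbols passed an adjusted p of 0.05. Eif4ebp1 lies farthest from 0 at −2.50, and only Deptor, Rps6ka1 and Eif4ebp1 are filled in both scalings. On log2(TPM + 1) 4 of the 7 lower genes have the opposite sign, and Rps6ka1 was not tested.

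Transcripts-per-million (TPM) values, which correct for transcript length, gave the order of levels within a library. In Ide-/- islets the most abundant were Rheb, the GTPase that activates mTOR complex 1 (62.1 ± 0.95 TPM in Ide-/-, SD, n = 3, and 41.7 ± 4.81 TPM in Ide+/+, SD, n = 5), and Eif4e (44.2 ± 10.5 TPM in Ide-/- and 34.5 ± 6.54 TPM in Ide+/+). Eif4ebp1 was the third most abundant in Ide+/+ at 27.5 ± 6.16 TPM, and stood at 9.91 ± 1.02 TPM in Ide-/-. At the other end, Pik3cb averaged 0.220 TPM in Ide-/- and 0.0720 TPM in Ide+/+, and Pik3cd 0.337 TPM in Ide-/- and 0.188 TPM in Ide+/+. In all, 9 genes averaged over 10 TPM in Ide-/- and 6 in Ide+/+, while 5 averaged under 1 TPM in Ide-/- and 9 in Ide+/+. TPM is a share of the library, and with the acinar share so different the median of all 12255 genes tested on the log2(TPM + 1) scale was 0.65 and that of the pathway genes 0.59. Of the 39 pathway genes 34 were tested on that scale, without Rps6ka1. Among them limma called 7 higher (Pik3ca, Foxo1, Foxo3, Tsc1, Tsc2, Rptor and Phlpp1) and Eif4ebp1 lower, where 41.6% of all genes were called (39.1% higher and 2.46% lower). Relative to the median of all genes, Tsc2 stood 0.89, Pik3ca 0.86 and Tsc1 0.65 log2 units above, Foxo1 stood at −0.05, and Deptor and Eif4ebp1 stood at −0.86 and −2.02.

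**Figure D2:**
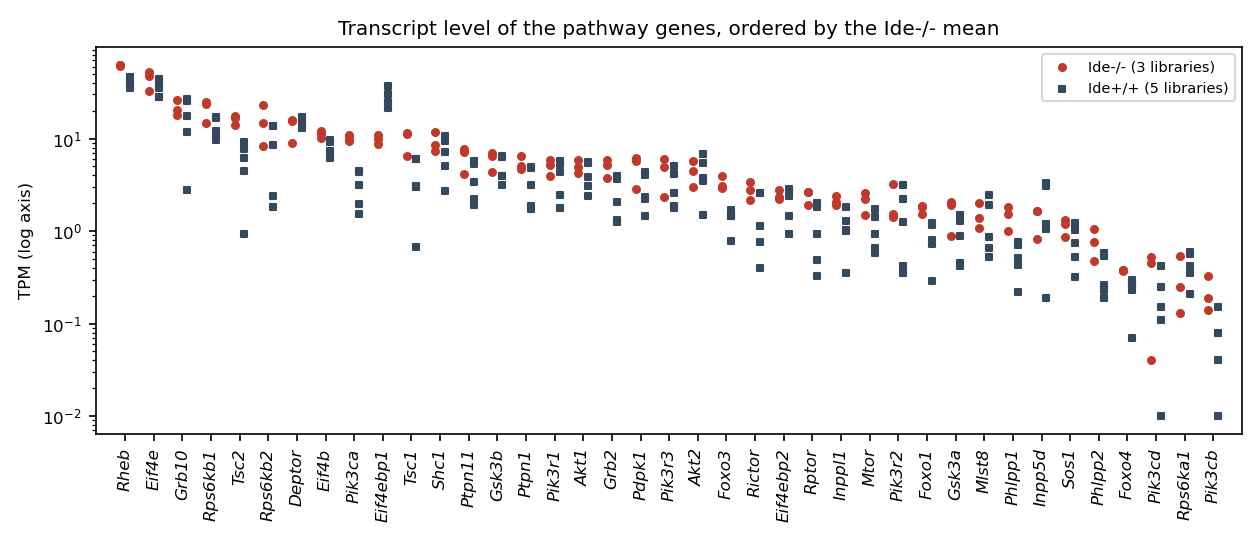
TPM of each gene in each library on a log axis, ordered by the Ide-/- mean; circles are the 3 Ide-/- libraries and squares the 5 Ide+/+ libraries. Rheb and Eif4e lie highest in Ide-/-, and the Eif4ebp1 squares (21.5 to 37.0 TPM) all lie above its circles (8.84 to 10.9 TPM).

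PI3K itself is a dimer of a catalytic and a regulatory subunit, and the called genes of each kind differed in opposite directions under TMM scaling. Pik3ca (ENSMUSG00000027665, chr3:32397671-32468486, plus strand), the p110 alpha catalytic subunit that carries most insulin signalling, had 18.9, 19.2 and 28.7 CPM in Ide-/- libraries, against 12.3, 12.8, 12.8, 13.7 and 15.8 CPM in Ide+/+ libraries. The groups did not overlap, and Ide-/- replicate 3, the shallowest library, was highest. The gene rose by 0.72 on the log2 scale (SE 0.19, adjusted p = 0.0206, edgeR), but the call was lost without Ide-/- replicate 3 (edgeR adjusted p = 0.107), without Ide+/+ replicate 4 (adjusted p = 0.0502) and with endocrine scaling (log2 fold change 0.64, SE 0.30, adjusted p = 0.171). With endocrine scaling it was called higher only when Ide+/+ replicate 5 was left out.

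Pik3r1 (ENSMUSG00000041417, chr13:101680563-101768217, minus strand) encodes the p85 alpha regulatory subunit, which stabilises p110 and docks it to IRS proteins. It had 17.1, 17.1 and 16.7 CPM in Ide-/- libraries, against 23.9, 23.4, 23.3, 30.9 and 25.8 CPM in Ide+/+ libraries. The Ide-/- values were nearly alike and all lay below the Ide+/+ values. Pik3r1 fell by 0.58 on the log2 scale (SE 0.17, edgeR adjusted p = 0.0346), and had −0.67 with endocrine scaling (adjusted p = 0.127), where the groups still did not overlap but the call was lost. Without any 1 Ide-/- library or Ide+/+ replicate 4 it was not called either (adjusted p of 0.0812 to 0.119), nor with no low-count filter (0.0953). The other subunits were not called. Pik3cb had a log2 fold change of 0.82 (SE 0.45), with overlapping groups at 0.610 to 1.19 CPM in Ide-/- and 0.200 to 0.858 CPM in Ide+/+, and Pik3cd, Pik3r2 and Pik3r3 had −0.14, −0.63 and −0.35. For Pik3r3, 23.2% of its 50-base stretches also occur in the overlapping Gm49337, so its counts are uncertain.

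Downstream of PI3K, Akt1 (ENSMUSG00000001729, chr12:112653821-112674884, minus strand), the AKT isoform known for growth and survival signals, had 8.69, 7.93 and 9.08 CPM in Ide-/- libraries, against 17.6, 12.1, 12.4, 14.8 and 11.7 CPM in Ide+/+ libraries. All Ide-/- values lay below all Ide+/+ values, and Ide+/+ replicate 1 was highest. Akt1 fell by 0.68 on the log2 scale (SE 0.19, edgeR adjusted p = 0.0291; with endocrine scaling −0.72, adjusted p = 0.0698), and was not called without any 1 Ide-/- library or Ide+/+ replicate 4 (0.0676 to 0.122), nor with no low-count filter (0.0548). Akt2, the isoform known for glucose uptake in muscle and fat, had nearly the same fold change and was not called (−0.73, SE 0.25, adjusted p = 0.0562), but it was called lower by DESeq2 (0.0385), with no low-count filter (0.0490) and without Ide+/+ replicate 5 (0.0125). Its 10.4, 9.40 and 10.6 CPM in Ide-/- overlapped 9.44 CPM in Ide+/+ replicate 5 and lay below the 15.9 to 23.4 CPM of the other Ide+/+ libraries, and 9.76% of its 50-base stretches occur in a pseudogene copy. For Pdpk1, which encodes the AKT kinase PDK1, the fold change was −0.09 on the log2 scale (SE 0.22, edgeR adjusted p = 0.807).

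Gsk3b (ENSMUSG00000022812, chr16:38089001-38246084, plus strand) encodes a kinase that AKT inhibits and that restrains glycogen synthesis and beta cell growth. It had 32.97, 29.1 and 24.2 CPM in Ide-/- libraries, against 59.8, 43.9, 44.4, 47.3 and 57.6 CPM in Ide+/+ libraries. The groups were well apart, and the gene fell by 0.81 on the log2 scale (SE 0.20, edgeR adjusted p = 0.0171; with endocrine scaling −0.90, adjusted p = 0.0614). Without Ide-/- replicate 2 or 3 it was not called (edgeR adjusted p = 0.0747 and 0.0850). Gsk3a, its paralog, had a log2 fold change of 0.08 (SE 0.27), and 25.7% of its 50-base stretches are shared, mostly with an overlapping gene. The Gsk3b to Gsk3a ratio of TPM came to 3.66, 3.09 and 4.88 in Ide-/- libraries, against 7.57, 4.40, 4.91, 4.47 and 8.82 in Ide+/+ libraries, overlapping and not past the test (exact permutation p = 0.125).

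The FOXO factors, which AKT keeps out of the nucleus and which act mainly through their location, were not called. Foxo1 had 11.03, 9.80 and 14.7 CPM in Ide-/- libraries and 5.91, 9.78, 9.63, 10.8 and 12.5 CPM in Ide+/+ libraries, and Foxo3 and Foxo4 overlapped too. Their log2 fold changes were 0.28 (SE 0.24, adjusted p = 0.426), 0.39 (SE 0.29, adjusted p = 0.362) and −0.07 (SE 0.38, adjusted p = 0.906) for Foxo1, Foxo3 and Foxo4 (edgeR). RNA level does not report where the FOXO proteins were.

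**Figure D3:**
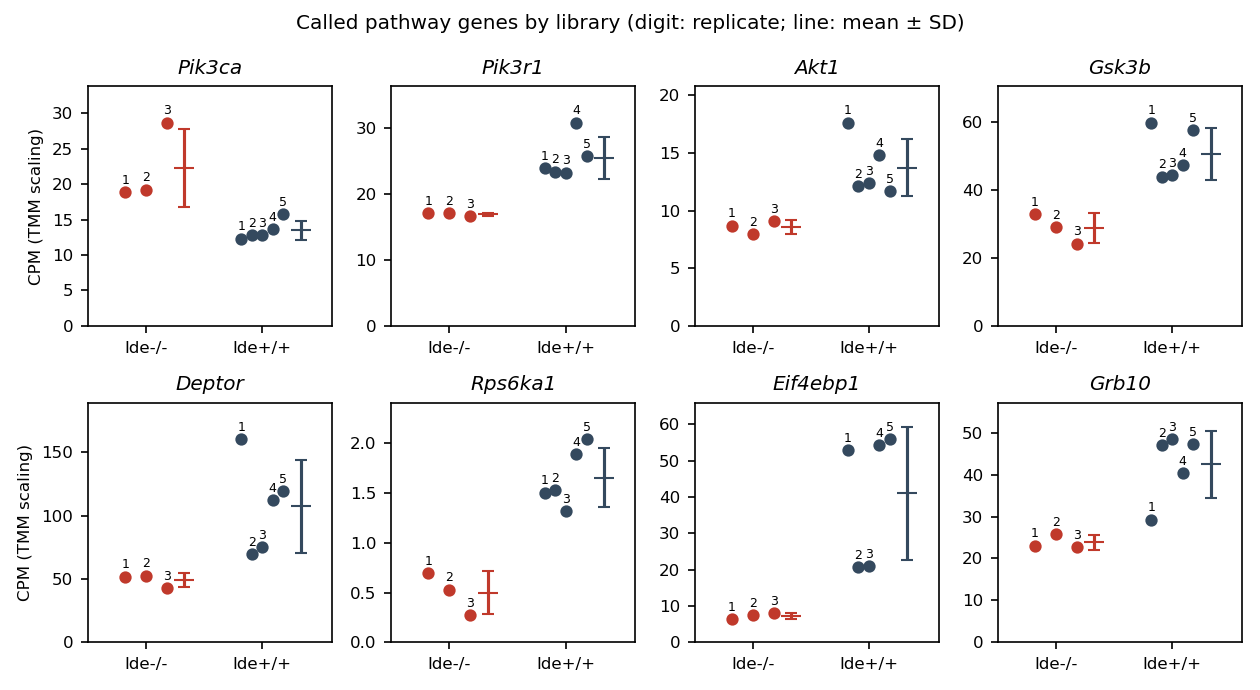
CPM with TMM scaling of the 8 called genes in each library; digits are replicate numbers, lines are the mean ± SD of 3 Ide-/- and 5 Ide+/+ libraries, and the axes start at 0. No panel has overlapping groups, and the Ide+/+ values of Eif4ebp1 fall into 20.7 and 20.9 CPM (replicates 2 and 3) and 52.9 to 55.9 CPM (replicates 1, 4 and 5).

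TSC1 and TSC2 together turn RHEB off. Tsc1 had 18.8, 19.1 and 15.3 CPM in Ide-/- libraries, against 5.51, 13.7, 14.8, 12.1 and 14.1 CPM in Ide+/+ libraries, and Tsc2 had 15.3, 14.0 and 23.8 CPM in Ide-/- libraries, against 7.01, 13.3, 13.0, 13.1 and 9.12 CPM in Ide+/+ libraries. In both genes the groups did not overlap, yet neither was called: the log2 fold changes were 0.55 (SE 0.27, adjusted p = 0.156) for Tsc1 and 0.65 (SE 0.25, adjusted p = 0.0867) for Tsc2 (edgeR). With endocrine scaling the groups of both genes overlapped. Rheb was not called, at −0.27 on the log2 scale (SE 0.30, adjusted p = 0.544). Over all 39 genes, 4 were higher and 9 lower in every Ide-/- library than in any Ide+/+ library, where 17.4% and 15.6% of all tested genes were; with endocrine scaling these counts were 0 and 9, where 11.8% and 15% of all genes were.

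Of the mTOR complex genes only Deptor was called. Mtor, Rptor and Rictor, the kinase and the scaffolds of complexes 1 and 2, had log2 fold changes of 0.31, 0.35 and 0.21, and Mlst8, a subunit of both, had −0.32. Deptor (ENSMUSG00000022419, chr15:55112317-55259271, plus strand), which binds mTOR and inhibits both complexes, had 51.9, 52.6 and 42.9 CPM in Ide-/- libraries, against 160, 69.4, 75.0, 112 and 119 CPM in Ide+/+ libraries. The Ide+/+ libraries ran over a wide range, with replicates 2 and 3 lowest and replicate 1 highest, and all lay above the Ide-/- libraries. Deptor fell by 1.12 on the log2 scale (SE 0.29, edgeR adjusted p = 0.0205) and had −1.20 with endocrine scaling (SE 0.35, adjusted p = 0.0411). Leaving out any 1 of the 3 Ide-/- libraries lost the call, with an adjusted p of up to 0.0943. Per 1000 TPM of the pan-endocrine genes, Deptor took 3.66, 4.43 and 3.53 TPM in Ide-/- and 9.12, 5.30, 5.74, 8.93 and 12.7 TPM in Ide+/+. As plain TPM the groups overlapped, at 16, 15.65 and 9 TPM in Ide-/- and 12.98 to 17.31 TPM in Ide+/+.

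Among the kinases at the end of the pathway, Rps6ka1 (ENSMUSG00000003644, chr4:133847290-133887797, minus strand) fell. It encodes RSK1, which ERK and PDK1 activate and which phosphorylates ribosomal protein S6. It was rare, with 25, 13 and 3 counts in Ide-/- libraries, against 15, 60, 37, 32 and 19 counts in Ide+/+ libraries. Scaled, these were 0.696, 0.529 and 0.275 CPM in Ide-/- libraries, against 1.503, 1.53, 1.32, 1.89 and 2.04 CPM in Ide+/+ libraries, without overlap. On the log2 scale Rps6ka1 had a fold change of −1.60 (SE 0.37, edgeR adjusted p = 0.0114), and of −1.71 with endocrine scaling (SE 0.47, adjusted p = 0.0307). The TMM call was lost without Ide-/- replicate 2 (adjusted p = 0.0538), and as TPM the groups overlapped (0.130 to 0.540 TPM in Ide-/- and 0.210 to 0.600 TPM in Ide+/+). The S6 kinase genes Rps6kb1 and Rps6kb2 had log2 fold changes of −0.13 and 0.30 and were not called.

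Eif4ebp1 (ENSMUSG00000031490, chr8:27260329-27276674, plus strand) encodes 4E-BP1, whose binding stretch is shown above. It had 6.35, 7.44 and 7.98 CPM in Ide-/- libraries, against 52.9, 20.7, 20.9, 54.3 and 55.9 CPM in Ide+/+ libraries. The 3 Ide-/- libraries lay close together, and the Ide+/+ libraries fell at either 21 or 53 to 56 CPM. As TPM the Ide+/+ libraries had 24.7, 24.1, 21.5, 37.0 and 30.1 TPM, without such a split, and replicates 1 and 2 lay close together. Eif4ebp1 fell by 2.50 on the log2 scale (SE 0.39, edgeR adjusted p = 0.00175) and had −2.62 with endocrine scaling (SE 0.48, adjusted p = 0.00346). Without any 1 library the edgeR adjusted p was 0.000509 to 0.0142. The Ide+/+ libraries with about 21 CPM were those with 21.8% and 22.1% of counts in acinar markers, and those with over 50 CPM had 34.2% to 38.0%. These are 2 clusters, one of them the near-identical replicates 2 and 3. Replicates 1, 4 and 5 had 38.0%, 34.2% and 34.6% of counts in acinar markers and 52.9, 54.3 and 55.9 CPM. TMM factors, by which CPM is divided, fell as the acinar share rose, so CPM and acinar share are linked by the scaling. Whether acinar RNA carries part of the difference between genotypes was not tested. Per 1000 TPM of pan-endocrine genes Eif4ebp1 took 2.29, 3.08 and 3.46 TPM in Ide-/- and 15.1, 7.65, 7.12, 21.97 and 29.5 TPM in Ide+/+.

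Eif4ebp2, which encodes the paralog 4E-BP2, had 10.97, 9.88 and 12.0 CPM in Ide-/- libraries, against 12.6, 15.1, 15.4, 21.5 and 16.7 CPM in Ide+/+ libraries. The groups did not overlap, but the log2 fold change of −0.58 (SE 0.20, edgeR adjusted p = 0.0610) was not called; it was called without Ide+/+ replicate 1 (−0.65, adjusted p = 0.0171) and by DESeq2 (−0.58, adjusted p = 0.0352). Since the ratio of 2 genes within a library does not depend on library scaling, Eif4ebp2 was set over Eif4ebp1. The TPM ratio was 0.281, 0.216 and 0.255 in Ide-/- libraries, against 0.0380, 0.118, 0.130, 0.0652 and 0.0485 in Ide+/+ libraries. The ratio was higher in 3 of 3 Ide-/- libraries than in any Ide+/+ library, by 1.80 on the log2 scale (two-sided exact permutation p = 0.0357 over 56 splits, whose smallest p is 0.0179), and it did not pass adjustment over the 13 ratios computed (adjusted p = 0.464). Without Ide+/+ replicate 2, 3, 4 or 5 the exact permutation p was 0.0571. The splits took Ide+/+ replicates 2 and 3 as separate samples, and no ratio was computed with them summed. The other 12 ratios, such as Akt2 to Akt1, Foxo1 to Foxo3 and Rictor to Rptor, overlapped between the genotypes. Among them the log2 ratio of Inpp5d to Inppl1 averaged −0.69 in Ide-/- libraries, against 0.31 in Ide+/+ libraries (two-sided exact permutation p = 0.161), and without Ide+/+ replicate 1 its groups did not overlap (log2 difference −1.29, exact permutation p = 0.0571).

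**Figure D4:**
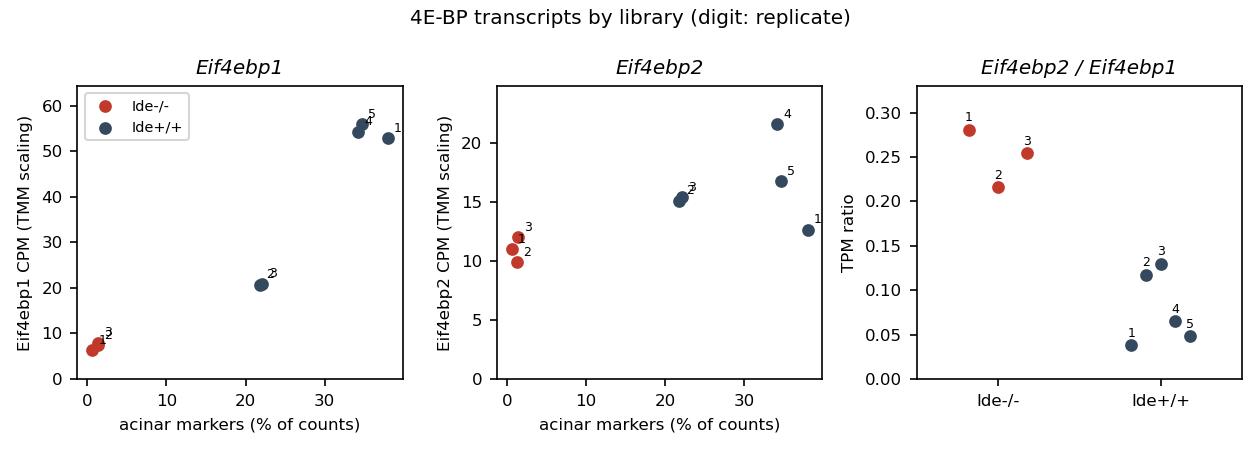
CPM of Eif4ebp1 (left) and Eif4ebp2 (middle) against the percent of counts in acinar markers, and their TPM ratio (right), by library; digits are replicate numbers. Eif4ebp1 lies at 6.35 to 7.98 CPM where the acinar share is at most 1.36% (Ide-/-), while Ide+/+ lies at 20.7 to 55.9 CPM with 21.8% to 38.0%, and the ratio is 0.216 or above in Ide-/- and 0.130 or below in Ide+/+.

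Eif4e, the factor that 4E-BPs restrain, had 42.0, 43.9 and 39.3 CPM in Ide-/- libraries, against 103, 48.7, 47.7, 53.0 and 60.7 CPM in Ide+/+ libraries. The groups did not overlap, with Ide+/+ replicate 1 far above the rest, and the log2 fold change of −0.58 (SE 0.27, edgeR adjusted p = 0.145) was not called. Eif4b, which helps the helicase eIF4A and is a target of S6 kinase, had −0.47 (SE 0.22, adjusted p = 0.148).

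Among the adaptors, Grb10 (ENSMUSG00000020176, chr11:11930508-12038683, minus strand) fell. It is an imprinted gene whose product binds the insulin receptor, dampens its signal and is stabilised by mTOR complex 1. Grb10 had 23.1, 25.8 and 22.6 CPM in Ide-/- libraries, against 29.3, 47.0, 48.5, 40.3 and 47.2 CPM in Ide+/+ libraries. All Ide-/- values lay below the Ide+/+ values, of which replicate 1 was lowest. Grb10 fell by 0.83 on the log2 scale (SE 0.21, edgeR adjusted p = 0.0173; with endocrine scaling −0.93, adjusted p = 0.0682, with overlapping groups), and was not called without any 1 Ide-/- library (adjusted p of 0.0602 to 0.0751). Grb2, Shc1 and Sos1, which link the receptor to RAS, had log2 fold changes of 0.21, −0.44 and −0.22. The phosphatases were not called either: Inpp5d and Inppl1, which remove a phosphate from the PI3K product, had −0.19 and 0.28, Phlpp1 and Phlpp2, which dephosphorylate AKT, had 0.29 and 0.31, and the tyrosine phosphatases Ptpn1 and Ptpn11 had 0.07 and −0.04.

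Over the 31 genes not called, log2 fold changes ran from −0.73 to 0.82, with SEs of 0.18 to 0.52 and a lowest adjusted p of 0.0562, so changes of this size were not detectable with these samples in the less precise genes. The direction of the smaller falls depended on the scale. On log2(TPM + 1) Pik3r1, Akt1, Gsk3b and Grb10 had positive, uncalled fold changes of 0.35, 0.27, 0.28 and 0.60, which lay at −0.30, −0.38, −0.37 and −0.05 relative to the median of all genes. Of the 8 called genes, at most 3.78% of 50-base stretches were shared with another gene. Some uncalled genes had higher shares, with 19.5% in Rps6kb2 (with Ptprcap), 17.2% in Inppl1, 16.4% in Mlst8 (with Bricd5) and 8.14% in Tsc2 (with Pkd1), whose counts are less certain.

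Promoter windows of 300 bases, from 250 before to 50 after the start, were searched for the FOXO motif GTAAACA on both strands (RefSeq, GRCm38.p6). The RefSeq windows matched 35 of the 39 genes, all but Foxo4, Deptor, Rps6kb2 and Eif4ebp1. The motif occurred in 3.65% of 32851 windows of all genes and in 1 of the 52 windows of the pathway genes, 1 of the 2 windows of Akt1. That window, chr12:112674835-112675134 on the minus strand, is shown because it is the only window of a pathway gene with the motif; capitals mark the match, on the strand opposite to the motif as written, which begins 161 bases before the start.
Akt1: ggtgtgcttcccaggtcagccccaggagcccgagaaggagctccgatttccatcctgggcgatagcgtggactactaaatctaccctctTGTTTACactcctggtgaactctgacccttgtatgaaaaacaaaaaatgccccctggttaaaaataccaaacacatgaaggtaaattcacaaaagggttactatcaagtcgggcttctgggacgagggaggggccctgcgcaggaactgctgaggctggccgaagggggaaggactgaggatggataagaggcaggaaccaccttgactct
The nutrient stress motif TGATGNAA of ATF4 occurred in 3.97% of all windows and in windows of Akt2 and Pik3cd, and the E-box CACGTG, which reads the same on both strands, in 7.15% and in windows of Eif4e and Rheb. A match is a description of the letters only.

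A further 109 genes of the same pathway in 5 lists were examined, of which 102 passed the filter. In Ide-/- islets 8 rose and 17 fell (24.5% of 102, with 21.1% of all genes called); with endocrine scaling 0 rose and 10 fell (9.80%, with 12.3% of all genes). These lists were chosen with earlier results known and are given as counts and values. Leaving out 1 library gave 4 higher and 6 lower without Ide-/- replicate 1, 3 and 4 without Ide-/- replicate 2, 0 and 4 without Ide-/- replicate 3 and 5 and 9 without Ide+/+ replicate 4. In these fits 10.8%, 9.36%, 9.07% and 13.1% of all genes were called. On the log2(TPM + 1) scale 27 were called higher and 1 lower, where 39.1% of all genes were called higher and 2.46% lower.

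Of 18 other PI3K and phosphoinositide genes 2 rose and 2 fell (22.2% called, with 21.1% of all genes), with a median log2 fold change of −0.13. With endocrine scaling 0 rose and 2 fell (11.1%, with 12.3% of all genes). Pik3ap1, a PI3K adaptor known from B cells and macrophages, had 0.724, 0.732 and 1.10 CPM in Ide-/- libraries, against 13.8, 10.3, 10.3, 16.7 and 14.2 CPM in Ide+/+ libraries. The Ide-/- level was a small part of the Ide+/+ level in every library. Pik3ap1 fell by 3.99 on the log2 scale (SE 0.29, edgeR adjusted p = 4.39e-05; −4.07 and 8.09e-05 with endocrine scaling). It lies on chromosome 19, 3.93 Mb from Ide, and macrophage and lymphocyte markers were lower in CPM as given above. The part of either in the Pik3ap1 fall was not tested. Sgk1, an AKT-like kinase regulated by glucocorticoids, had 18.6, 22.2 and 27.3 CPM in Ide-/- libraries, against 17.5, 73.7, 71.0, 148 and 151 CPM in Ide+/+ libraries. Ide+/+ replicate 1 lay below all Ide-/- libraries, and Sgk1 fell by 2.03 on the log2 scale (SE 0.55, adjusted p = 0.0232), and by 2.29 without that library (adjusted p = 0.00116); without any 1 Ide-/- library or Ide+/+ replicate 4 it was not called (up to 0.0895). Inpp5e and Inpp4a, which remove phosphates from phosphoinositides, rose by 0.77 (SE 0.24, adjusted p = 0.0419) and 0.72 (SE 0.23, adjusted p = 0.0427) and were not called with endocrine scaling or without any 1 Ide-/- library (adjusted p of up to 0.143 for Inpp5e and 0.213 for Inpp4a).

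Of 30 tested mTOR complex and nutrient sensing genes 1 rose and 2 fell (10% called, with 21.1% of all genes; median −0.25). With endocrine scaling 0 rose and 1 fell (3.33%, with 12.3% of all genes). Slc38a9, the lysosomal arginine sensor that signals to mTOR complex 1, had 14.6, 13.0 and 18.5 CPM in Ide-/- libraries, against 6.41, 9.37, 8.46, 8.66 and 9.23 CPM in Ide+/+ libraries, and rose by 0.86 on the log2 scale (SE 0.19, edgeR adjusted p = 0.0101; 0.0924 with endocrine scaling). Sesn2, a stress-induced leucine sensor that inhibits mTOR complex 1, had 4.73, 3.50 and 2.20 CPM in Ide-/- libraries, against 7.41, 13.2, 10.6, 10.0 and 5.47 CPM in Ide+/+ libraries, and had a fold change of −1.40 on the log2 scale (SE 0.32, adjusted p = 0.0106; 0.0103 with endocrine scaling). Neither gene overlapped between the genotypes. The Slc38a9 call was lost without Ide-/- replicate 3 (adjusted p = 0.0571), and that of Sesn2 without Ide-/- replicate 2 or 3 (up to 0.0531). Prr5l, a partner of mTOR complex 2, fell by 1.49 (SE 0.41, adjusted p = 0.0259) at 0.275 to 0.488 CPM in Ide-/- and 0.501 to 1.32 CPM in Ide+/+. It was not called with endocrine scaling, without any 1 Ide-/- library or without Ide+/+ replicate 2 or 3 (adjusted p of up to 0.106).

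Translation factors had the lowest median, −0.62 over 14 genes, with 1 that rose and 7 that fell (57.1% called, with 21.1% of all genes). With endocrine scaling 0 rose and 3 fell in this list (21.4%, with 12.3% of all genes). Rps6, the ribosomal protein that S6 kinases phosphorylate, had 102, 108 and 111 CPM in Ide-/- libraries, against 322, 180, 181, 320 and 333 CPM in Ide+/+ libraries. Eef2, the elongation factor controlled by eEF2 kinase, had 118, 119 and 114 CPM in Ide-/- libraries, against 222, 212, 202, 378 and 365 CPM in Ide+/+ libraries. Both genes were nearly level within Ide-/-. For Rps6, as for Eif4ebp1 in CPM, Ide+/+ replicates 2 and 3 lay below replicates 1, 4 and 5, whose acinar shares were higher and TMM factors lower. Eef2 in replicate 1, the library with the largest acinar share, was near replicates 2 and 3. CPM is divided by the TMM factor, and the part of acinar RNA or of the scaling in these levels was not tested. Rps6 fell by 1.32 (SE 0.30, edgeR adjusted p = 0.0111; 0.0344 with endocrine scaling) and Eef2 fell by 1.24 (SE 0.30, adjusted p = 0.0143; 0.0487 with endocrine scaling). Eif4h, which assists eIF4A, fell by 0.81 (SE 0.21, adjusted p = 0.0193), and Eif4g3, a scaffold of the cap-binding complex, rose by 0.75 (SE 0.19, adjusted p = 0.0169), which endocrine scaling did not call. All 4 lost their calls without any 1 Ide-/- library, with an adjusted p of up to 0.0545 for Rps6, 0.0674 for Eef2, 0.0911 for Eif4h and 0.0745 for Eif4g3.

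Of 21 tested receptor adaptors and negative regulators 2 rose and 1 fell (14.3% called, with 21.1% of all genes; median −0.03). With endocrine scaling 0 rose and 1 fell (4.76%, with 12.3% of all genes). Trib1, a pseudokinase, rose by 0.71 (SE 0.19, edgeR adjusted p = 0.0217), Gab3, a docking protein, rose by 1.12 (SE 0.35, adjusted p = 0.0436), and Grb7, of the Grb10 family, fell by 0.81 (SE 0.22, adjusted p = 0.0224). Of these only Grb7 was called with endocrine scaling, and all 3 lost their calls without Ide-/- replicate 2 or 3 (adjusted p of up to 0.105 for Trib1, 0.179 for Gab3 and 0.0879 for Grb7). Of 19 tested FOXO target genes known from liver, muscle and other cells 2 rose and 5 fell (36.8% called, with 21.1% of all genes; median −0.28), and with endocrine scaling 0 rose and 3 fell (15.8%, with 12.3% of all genes). Cat, catalase, had 4.90, 4.23 and 6.51 CPM in Ide-/- libraries, against 21.4, 12.6, 10.6, 15.3 and 23.1 CPM in Ide+/+ libraries, and Klf15, a factor of amino acid breakdown, had 3.62, 2.52 and 3.94 CPM in Ide-/- libraries, against 11.4, 8.30, 10.3, 32.7 and 17.9 CPM in Ide+/+ libraries. The groups of both lay apart, and the log2 fold changes were −1.67 for Cat (SE 0.29, adjusted p = 0.00313) and −2.27 for Klf15 (SE 0.44, adjusted p = 0.00525). Pdk4, which restrains glucose oxidation, fell by 1.14 (SE 0.21, adjusted p = 0.00376), and Cited2, a transcriptional coregulator, rose by 1.01 (SE 0.23, adjusted p = 0.0122). Cat, Klf15 and Pdk4 were also called with endocrine scaling, and Cited2 was not. Cat, Klf15 and Pdk4 remained called without any 1 library, and Cited2 was not called without Ide-/- replicate 3 (adjusted p = 0.0688). On log2(TPM + 1) and on log2(TPM + 0.1) only 1 gene of all 5 lists was called lower. The calls of Cat, Klf15 and Pdk4 therefore did not all hold on the TPM scale.

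**Figure D5:**
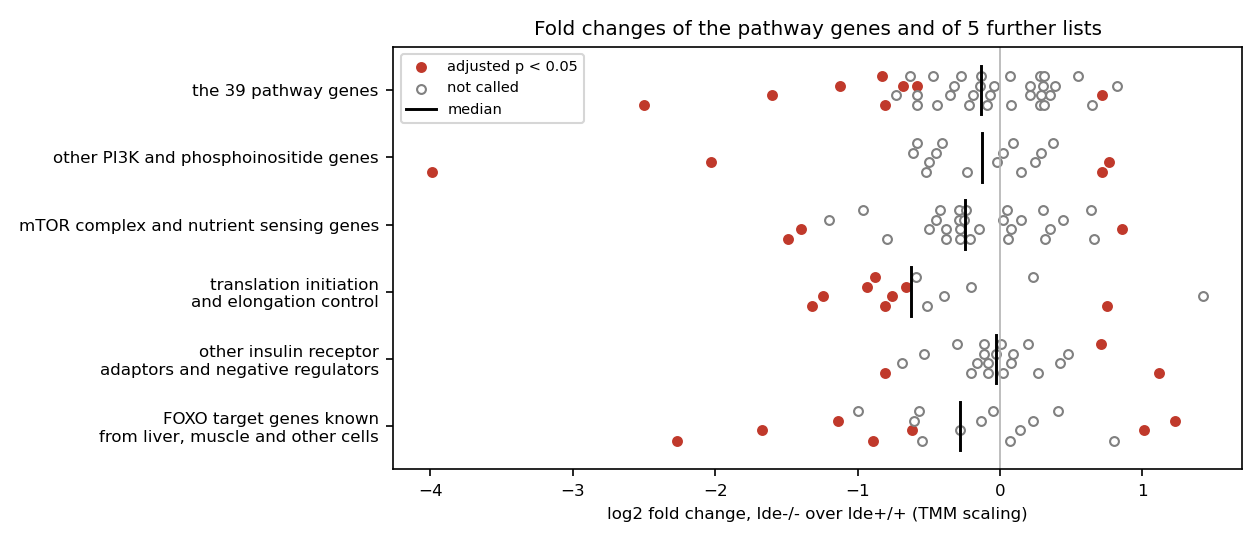
Log2 fold change, Ide-/- over Ide+/+ (TMM scaling), of each tested gene in the 39 pathway genes and in 5 further lists; filled points passed an adjusted p of 0.05 and black lines are list medians. The translation list has the lowest median at −0.62, and Pik3ap1 is the leftmost point at −3.99.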

How the data were processed

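RNA from hand-picked islets of 3 Ide-/- and 5 Ide+/+ samples was sequenced. Per the submitters' processing notes, STAR 2.7.1a and RSEM 1.3.1 were used with GRCm38. Neither annotation release nor strandedness is given in the sources used here, so a gene and its antisense partner cannot be told apart. The authors deposited, per gene, expected counts, without normalization, and TPM, a length-corrected share of the library. Symbols came from GENCODE M21 for 55141 of 55487 identifiers.

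Expected counts were rounded. Genes were kept by filterByExpr (minimum count 10, minimum total 15), leaving 16266, scaled with TMM (factors 1.53 to 2.06 in Ide-/- and 0.406 to 1.18 in Ide+/+) and tested in 1 fit with edgeR 4.0.16 (robust quasi-likelihood F test, R 4.3.3), with Benjamini-Hochberg adjustment over all tested genes. SE is the log2 fold change over the square root of F. Endocrine scaling replaced TMM by the median log ratio of 22 pan-endocrine genes, of which 5 were themselves called higher with TMM. Other settings were DESeq2 1.42.0, limma 3.58.1 (trend, robust) on log2(TPM + 1) or log2(TPM + 0.1) for genes with at least 1 TPM in 3 libraries, no low-count filter, no acinar genes, each library left out and a replicate block. Endocrine scaling combined with leaving out a library or with the block, and summing Ide+/+ replicates 2 and 3, were added after seeing the data. For 13 gene pairs, log2 TPM ratios were compared by exact permutation over 56 splits (two-sided). Shared stretches were distinct 50-base stretches of annotated transcripts, either strand. The fits were tested on simulated data.

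The pathway genes, the 5 further lists and the marker lists were chosen with earlier results of these data known. Named were all 39 genes, Ide, and up to 4 called genes of each further list by smallest p. An acinar symbol without a match, of 25 listed, was left out.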

Additional observations from a re-analysis of the deposited data

Results flagged for a closer look

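In 52 sets of Ide+/+ values, 4 had a library far from the other 4 by Dixon's ratio (above 0.710), where chance alone gives about 1 in 20. In all 4 it was Ide+/+ replicate 1, the library with Xist counts and the largest acinar share. Its Pik3cd level was 0.1002 CPM, with the next lowest at 0.751 CPM. Its Pdpk1 level was 28.4 CPM, with the next highest at 18.3 CPM. Its Tsc1 level was 5.51 CPM, with the next lowest at 12.1 CPM. Its Eif4e level was 103 CPM, with the next highest at 60.7 CPM. Without that library none of these 4 genes was called: the log2 fold changes were −0.33 for Pik3cd (edgeR adjusted p = 0.571), 0.10 for Pdpk1 (0.632), 0.38 for Tsc1 (0.0733) and −0.33 for Eif4e (0.118).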

How the results depend on the processing

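Of 614 fold changes of the 39 genes under other settings 517 kept their direction and their side of the threshold, 35 lost a call, 15 gained one and 47 changed sign; of 143 ratios these numbers were 121, 4, 0 and 18. Where no cause is named, the cause was not tested. Eif4ebp1 was called lower in every setting run.

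Against 1 pathway gene called higher and 7 lower with TMM, endocrine scaling gave 0 and 3, log2(TPM + 1) 7 and 1, log2(TPM + 0.1) 5 and 1, and leaving out 1 library 0 to 1 and 1 to 8. Endocrine scaling without 1 library gave 0 to 1 and 1 to 7, with 0 and 3 when Ide+/+ replicates 2 and 3 were summed. Against 8 and 17 genes of the further lists, endocrine scaling gave 0 and 10, log2(TPM + 1) 27 and 1, log2(TPM + 0.1) 24 and 1, and leaving out 1 library 0 to 10 and 4 to 24. The share of calls in the higher direction over all genes was 49.6% with TMM, 37.9% with endocrine scaling and 94.1% on log2(TPM + 1). With no low-count filter 30314 genes were tested and 11.2% called. On log2(TPM + 0.1) 33.2% of all genes were called. Leaving out 1 library gave 9.07% to 26.7% of all genes, and 4.59% to 16.4% with endocrine scaling.

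Replicate numbers 1 to 3 occur in both genotypes, but the deviations of same-numbered libraries from their group means correlated at 0.0485, 0.00918 and −0.0934, so the numbers were not taken to pair samples. A replicate block gave 0 pathway genes higher and 1 lower (also 0 and 1 with endocrine scaling), and 3 and 5 in the further lists. With the block 7.20% of all genes were called, and 6.89% with endocrine scaling. The block changed the sign of Pik3cd (0.06), Foxo4 (0.36), Inpp5d (0.14) and Pik3r3 over Pik3r1 (−0.10), none called.

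Signs changed on log2(TPM + 1) and log2(TPM + 0.1), uncalled, for Pik3r1 (0.35 and 0.45), Pik3r2 (0.40 and 0.77), Pik3r3 (0.42 and 0.53), Pdpk1 (0.61 and 0.78), Akt1 (0.27 and 0.34), Akt2 (0.12 and 0.17), Gsk3b (0.28 and 0.33), Rheb (0.57 and 0.58), Mlst8 (0.19 and 0.39), Rps6kb1 (0.64 and 0.67), Eif4e (0.34 and 0.35), Eif4ebp2 (0.21 and 0.33), Eif4b (0.46 and 0.51), Grb10 (0.60 and 0.68), Shc1 (0.45 and 0.52), Sos1 (0.29 and 0.60), Ptpn11 (0.67 and 0.82) and Inpp5d (0.06 with 0.1 only); here the median of all genes was 0.65.

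Leaving out 1 library gave ranges across 0 for Pik3cd (−0.43 to 0.17), Pdpk1 (−0.17 to 0.10), Gsk3a (−0.10 to 0.26), Foxo4 (−0.20 to 0.06), Rps6kb2 (−0.10 to 0.60), Inpp5d (−0.45 to 0.03) and Ptpn11 (−0.11 to 0.09). It did so for the log2 ratio differences of Pik3ca over Pik3cb (−0.43 to 0.25), Pik3r3 over Pik3r1 (−0.16 to 0.33), Foxo1 over Foxo3 (−0.24 to 0.06), Tsc1 over Tsc2 (−0.38 to 0.17) and Ptpn1 over Ptpn11 (−0.19 to 0.15). Ratios with 0.1 added or from counts changed sign for Pik3ca over Pik3cb (0.89), Phlpp1 over Phlpp2 (−0.01) and Ptpn1 over Ptpn11 (0.13). The number of ratios with an unadjusted exact p under 0.05 was 1, and 0 to 1 without 1 library. Ide-/- replicate 3, with 7143424 counts, limits precision for rare genes such as Rps6ka1, Pik3cd and Pik3cb.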
